A study of Mus musculus with 4 samples.

Results

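The genes described here are 34 genes that mark the endothelium of the lung, the layer of cells that lines its blood and lymphatic vessels. They were taken from the deposited count table by their symbols, from a list of general endothelial, capillary and lymphatic genes. The rule uses no measured value, but the list was drawn up with earlier results of these data known. All 34 were found among the 56748 rows of the table, and all 34 were among the 15167 genes with enough counts to be tested. Endothelial cells hold each other by junction proteins, take up signals through VEGF, angiopoietin, BMP and G protein-coupled receptors, and keep their identity through transcription factors of the ETS and SOX families. In the lung most of them form the capillaries around the alveoli, where gas is exchanged. They also anchor lipoprotein lipase, make nitric oxide and store von Willebrand factor.

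The study used BALB/cJ female mice that were 7 weeks old when 4T1-FLuc cells, a mouse triple-negative breast cancer line carrying firefly luciferase, were injected into the tail vein. Both groups therefore carried 4T1 metastases in the lung. After metastasis had been detected, mice were given saline, or cmLumiOpto together with the PARP inhibitor olaparib at 50 mg/kg, and tissue was taken about 3 weeks into treatment. cmLumiOpto is a gene therapy that makes cancer cells produce a luciferase and a light-gated channel placed in their mitochondria. It is carried by AAV within exosomes that bear an antibody to CD276, and is switched on with the luciferase substrate ViviRen at 2 mg/kg. Bulk RNA was sequenced from 2 saline libraries and 2 cmLumiOpto/PARPi libraries, called treated below. The sample titles name the controls saline and the treatment label names them PBS, and the labels give the material as 4T1 tumour cells from the lung, whereas the methods name saline and lung tissue.

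Gene counts summed to between 15263375 and 16755228 per library, so 3 counts, the least taken as detected, stood for 0.173 to 0.204 CPM, the counts of a gene divided by the TMM-adjusted size of its library and put on a common scale. This floor covers counting error only. Libraries of the same group differed by more than counting noise, with a chi-square over its degrees of freedom of 24.1 for saline and 41.1 for treated. Nothing in the labels says that libraries of a group came from separate mice, so p-values measure only the spread between these libraries. With 2 libraries against 2, an exact permutation test cannot give a two-sided p below 0.33. In bulk RNA, fewer endothelial cells and less endothelial RNA per cell cannot be told apart.

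The labelled cell type did not cover what the libraries held. The endothelial junction markers Pecam1 and Cdh5 were read in every library at more than 100 CPM, at 118 to 208 CPM and 109 to 171 CPM. The junction genes Cldn5 and Esam were lower, at 34.2 to 102 CPM and 36.0 to 97.8 CPM. Of the 34 genes only Prox1 came down to the floor, with 3 counts in saline 2.

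Promoters of 4 of these genes are printed because the genes differ in the order of their libraries, with 3 of them higher and Flt1 lower in both treated libraries than in both saline libraries, and because the endothelial ETS and SOX factors described later bind short motifs of this kind. They were chosen after the values had been seen. Each runs from 250 bases before to 50 bases after a RefSeq transcription start in GRCm38.p6, 5′ to 3′ on the gene's strand, with every AGGAAG (the ETS class searched, either strand) or ACAAT (the SOX class searched, either strand) in capitals. On either strand, no end of 1 motif equals a start of the other, so a match of the ETS class cannot overlap a match of the SOX class. Cldn5 lies at chr16:18776597-18776896 (plus strand), Egfl7 at chr2:26583615-26583914 (plus strand, 1 of 3 starts), Emcn at chr3:137340828-137341127 (plus strand) and Flt1 at chr5:147725962-147726261 (minus strand).
Cldn5: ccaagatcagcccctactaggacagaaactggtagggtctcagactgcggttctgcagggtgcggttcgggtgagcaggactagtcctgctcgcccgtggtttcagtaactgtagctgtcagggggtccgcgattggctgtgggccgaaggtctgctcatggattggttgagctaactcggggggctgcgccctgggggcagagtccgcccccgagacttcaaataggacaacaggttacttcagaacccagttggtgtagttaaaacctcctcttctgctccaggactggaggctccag
Egfl7: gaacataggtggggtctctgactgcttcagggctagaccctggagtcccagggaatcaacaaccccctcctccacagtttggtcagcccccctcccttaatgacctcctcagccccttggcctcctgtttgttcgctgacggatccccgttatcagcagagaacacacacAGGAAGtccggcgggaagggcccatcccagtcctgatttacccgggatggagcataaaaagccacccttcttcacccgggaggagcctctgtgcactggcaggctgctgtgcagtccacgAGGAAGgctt
Emcn: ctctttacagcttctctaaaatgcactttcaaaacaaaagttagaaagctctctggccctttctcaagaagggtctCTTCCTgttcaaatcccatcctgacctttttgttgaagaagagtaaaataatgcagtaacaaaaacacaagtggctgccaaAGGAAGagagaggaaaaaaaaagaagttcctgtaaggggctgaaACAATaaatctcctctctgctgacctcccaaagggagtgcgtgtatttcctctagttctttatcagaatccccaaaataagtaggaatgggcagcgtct
Flt1: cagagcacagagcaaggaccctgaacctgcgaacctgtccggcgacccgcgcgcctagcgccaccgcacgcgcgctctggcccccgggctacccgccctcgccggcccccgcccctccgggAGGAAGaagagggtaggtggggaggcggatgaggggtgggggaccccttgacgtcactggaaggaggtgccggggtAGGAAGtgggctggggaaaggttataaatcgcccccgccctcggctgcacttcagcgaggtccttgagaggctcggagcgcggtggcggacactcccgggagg

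Cldn5 held neither motif in this window, Egfl7 and Flt1 each held 2 matches of the ETS class, and Emcn held 2 of the ETS class and 1 of the SOX class. Of the 34 genes, 15 had promoters in the RefSeq table, 20 starts in all. The ETS class occurred in 8 of those 20 (40%) and in 35.4% of all 32851 promoters of this length. The SOX class occurred in 5 of 20 (25%) and in 31% of all promoters. The shares among the endothelial genes thus lay near those of all promoters.

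The comparison of treated with saline libraries asked how lung tissue with metastases differed after cmLumiOpto/PARPi. No endothelial gene passed edgeR's quasi-likelihood test at an adjusted p under 0.05, and 0% of all genes tested did; the smallest adjusted p over all 15167 genes was 0.138. The log2 fold change of treated over saline was above 0 for 27 of the 34 genes and below 0 for 7, with a median of 0.61 against 0.02 over all genes tested. It ranged from -0.32 for Flt1 to 1.63 for Ramp2.

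At an unadjusted p under 0.05, 8 of the 34 were higher, where 9.21% of all genes were, and 0 were lower, where 12% of all genes were. The 8 genes were Cldn5, Esam, Icam2, Ramp2, Car4, Gpihbp1, Egfl7 and Lyve1. Groups did not overlap, with the treated libraries higher, for 10 of the 34, or 29.4%, close to the 27.4% of all genes that did so. The treated libraries were lower without overlap for 2 of the 34, Cd93 and Flt1, where 27.8% of all genes were. The groups overlapped for the other 22.

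Each of 3 other tests called 4 of the 34, all higher. These were Esam, Car4, Gpihbp1 and Egfl7 in each of DESeq2, edgeR's exact test and edgeR's likelihood ratio test, where 2.17%, 2.12% and 2.27% of all genes were called higher. Their DESeq2 adjusted p was 0.00633, 0.0118, 0.00834 and 0.00625. Without the filter on low counts, edgeR's quasi-likelihood test called 14 of the 34, all higher, where it called 3.67% of 25435 genes higher. Of the 15167 genes that pass the filter, as all 34 do, it called 5.81% higher.

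**Figure D1:**
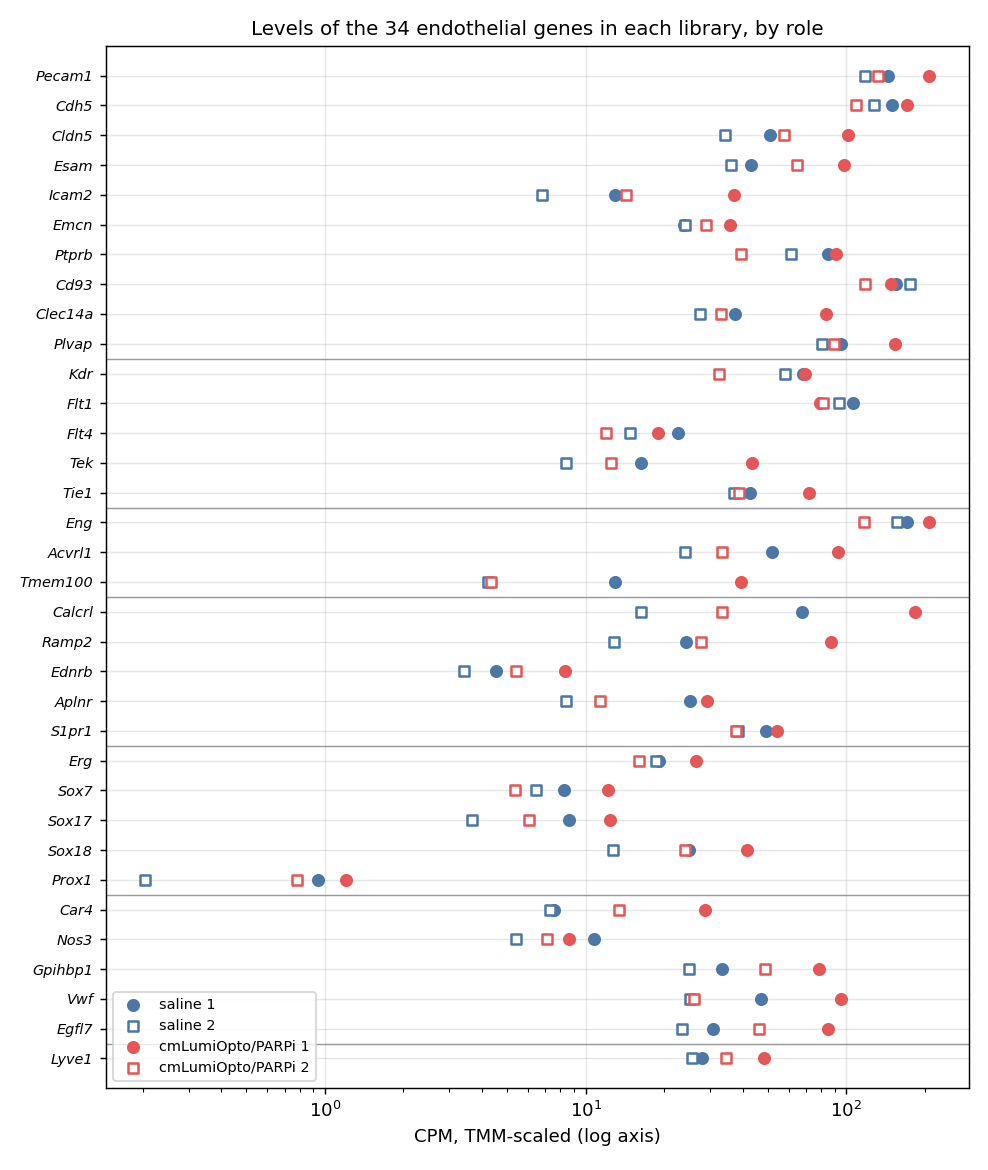
TMM-scaled CPM (log axis) of each of the 34 endothelial genes in saline 1 and 2 (blue) and treated 1 and 2 (red), filled circles for replicate 1 and open squares for replicate 2, with horizontal lines between roles. Treated 1 was the highest library for 30 of the 34 genes and saline 2 the lowest for 23.

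Of the junction and surface adhesion genes, 8 of 10 had a log2 fold change above 0. On the higher side 4 of 10 did not overlap between groups, where 27.4% of all genes tested did not. Cldn5 (chr16:18776847-18778262, GRCm38), the main claudin of endothelial tight junctions, read 50.9 and 34.2 CPM in saline and 102 and 57.5 CPM in treated libraries. Esam (chr9:37528078-37538319), an adhesion molecule of the same junctions, read 43.1 and 36.0 CPM in saline and 97.8 and 64.6 CPM in treated libraries. The groups of both genes did not overlap, though for Cldn5 the lower treated library was only just above the higher saline library. Their log2 fold changes were 0.90 ± 0.32 and 1.04 ± 0.23, where a value after ± is a standard error, here and below. Icam2 (chr11:106377656-106388075), an adhesion molecule for leukocytes, read 13.0 and 6.81 CPM in saline and 37.0 and 14.3 CPM in treated libraries. Its lower treated library was only just above its higher saline library, and its log2 fold change of 1.37 had an SE of 0.52. Emcn (chr3:137341067-137432185), a sialomucin of capillaries and veins, read 23.8 and 24.1 CPM in saline and 35.6 and 28.8 CPM in treated libraries, with a log2 fold change of 0.43 ± 0.18. Over these 4 genes edgeR's quasi-likelihood adjusted p lay between 0.138 for Esam and 0.248 for Emcn.

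Cd93 (chr2:148436640-148443563), a lectin-like receptor of endothelium and of some myeloid cells, went the other way. It read 155 and 175 CPM in saline and 148 and 118 CPM in treated libraries, a log2 fold change of -0.31 ± 0.17 (edgeR adjusted p 0.33). Treated 1 lay just under saline 1, so most of the distance came from saline 2 and treated 2.

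Pecam1, the platelet and endothelial adhesion molecule also carried by leukocytes, read 144 and 118 CPM in saline and 208 and 132 CPM in treated libraries, so treated 2 lay within the saline range. Cdh5, the cadherin of endothelial junctions, read 150 and 128 CPM in saline and 171 and 109 CPM in treated libraries, so the treated libraries enclosed the saline ones. Its log2 fold change was 0.01 ± 0.24, with a sign that turned in DESeq2. Ptprb, the phosphatase that acts on Cdh5 and Tek, had the same layout, with 84.7 and 61.2 CPM in saline and 90.9 and 39.5 CPM in treated libraries. Clec14a and Plvap, the latter the protein of endothelial diaphragms, had log2 fold changes of 0.84 ± 0.43 and 0.47 ± 0.27, and in both treated 2 lay within the saline range. None of these 5 genes had an edgeR adjusted p under 0.316.

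Of the VEGF and angiopoietin receptors, the 3 VEGF receptors had log2 fold changes below 0 and the 2 angiopoietin-linked receptors above 0, a difference between families that was not tested. The signs of Kdr, Flt4 and Tie1 turned on leaving out a library, and that of Flt1 under the loess correction for gene length described below. The VEGF receptors are also the longer genes, at 8232 to 13504 bases against 4712 and 4917 for Tek and Tie1. Flt1 (chr5:147561604-147726011), which binds VEGF-A, VEGF-B and PlGF, read 106 and 94.0 CPM in saline and 79.5 and 81.0 CPM in treated libraries. Its groups did not overlap, its treated libraries were nearly equal, and its log2 fold change was -0.32 ± 0.13 (edgeR adjusted p 0.243). Kdr (chr5:75932827-75978458), the main signalling receptor for VEGF-A, read 67.9 and 58.2 CPM in saline and 69.5 and 32.6 CPM in treated libraries. Here treated 1 was the highest of the 4 libraries and treated 2 the lowest, with a log2 fold change of -0.30 ± 0.35. Flt4, the receptor for VEGF-C and VEGF-D on lymphatic and some capillary endothelium, had a log2 fold change of -0.27 ± 0.32 and overlapping groups.

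Tek, the angiopoietin receptor, read 16.3 and 8.38 CPM in saline and 43.5 and 12.5 CPM in treated libraries (chr4:94739289-94874976). Treated 1 stood far above the rest and treated 2 lay between the saline libraries, so the log2 fold change of 1.18 had an SE of 0.62. Its partner Tie1 had a log2 fold change of 0.47 ± 0.30. In edgeR's test the adjusted p was 0.323 for Tek and 0.405 for Tie1.

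The BMP and TGF-beta receptor genes overlapped between groups in all 3 cases. Acvrl1 (ALK1), the receptor for circulating BMPs, read 51.7 and 24.1 CPM in saline and 92.5 and 33.2 CPM in treated libraries. Eng (endoglin), its co-receptor, read 171 and 156 CPM in saline and 208 and 117 CPM in treated libraries, and its log2 fold change of -0.01 ± 0.27 turned to 0.09 with upper-quartile factors. Within each group the library with more Acvrl1 also had more Eng, an order that nearly all of the 34 genes had. Tmem100, a membrane protein downstream of this pathway, read 12.9 and 4.22 CPM in saline and 39.4 and 4.33 CPM in treated libraries. Treated 2 thus stood level with saline 2, and treated 1 was 9.09 times treated 2, the widest ratio within a group among the 34 genes. The edgeR adjusted p of the 3 genes was between 0.470 and 0.986.

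All 5 genes of G protein-coupled receptors, counting the receptor partner Ramp2, had log2 fold changes above 0. On the higher side 2 of 5 did not overlap between groups, where 27.4% of all genes tested did not. Ramp2 (chr11:101246028-101259546) is the partner that makes Calcrl a receptor for adrenomedullin. It read 24.1 and 12.9 CPM in saline and 86.9 and 27.8 CPM in treated libraries, a log2 fold change of 1.63 ± 0.57 (edgeR adjusted p 0.200). Calcrl (chr2:84330626-84425411) read 67.8 and 16.3 CPM in saline and 183 and 33.5 CPM in treated libraries, with a log2 fold change of 1.37 ± 0.92. Like nearly all the endothelial genes described here, both had replicate 1 above replicate 2 in each group. Treated 2 passed saline 1 for Ramp2 and not for Calcrl.

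Ednrb (chr14:103814625-103844402), an endothelin receptor that marks the large capillary cells called aerocytes, read 4.52 and 3.41 CPM in saline and 8.35 and 5.42 CPM in treated libraries. Its groups did not overlap and its log2 fold change was 0.79 ± 0.37 (edgeR adjusted p 0.280). Aplnr, the apelin receptor, read 25.02 and 8.38 CPM in saline and 29.2 and 11.4 CPM in treated libraries, where each group spanned more than the difference between them. S1pr1, the sphingosine-1-phosphate receptor that tightens junctions, read 49.1 and 38.2 CPM in saline and 54.2 and 37.8 CPM in treated libraries, a log2 fold change of 0.08 ± 0.23.

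The transcription factors all had log2 fold changes above 0 and all overlapped between groups. Erg, the ETS factor of mature endothelium, read 19.1 and 18.5 CPM in saline and 26.4 and 16.1 CPM in treated libraries. Sox18 (chr2:181669836-181671640) had the largest log2 fold change of the 5, 0.81 ± 0.40, at 24.8 and 12.7 CPM in saline and 41.7 and 24.0 CPM in treated libraries. Its treated 2 value lay just below saline 1. The related Sox7 and Sox17 had log2 fold changes of 0.25 ± 0.44 and 0.58 ± 0.53, between 3.68 and 12.4 CPM over all libraries. Prox1, the factor that sets lymphatic identity, had 15 and 3 counts in saline and 21 and 13 counts in treated libraries, so a difference in it was hardly detectable at this depth. The lowest edgeR adjusted p among the 5 was 0.303, for Sox18.

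The enzymes, the lipase anchor and the secreted proteins had the highest median of the roles with more than 1 gene, 1.13 on the log2 scale over 5 genes. Car4 (chr11:84957786-84966044), a membrane-bound carbonic anhydrase of lung capillaries, read 7.59 and 7.29 CPM in saline and 28.7 and 13.4 CPM in treated libraries. The saline libraries were close and the treated ones were both higher, 2.83-fold higher on the fitted scale with an SE of 0.39 on the log2 scale (edgeR adjusted p 0.145). Gpihbp1 (chr15:75596628-75599481) carries lipoprotein lipase to the capillary lumen. It read 33.3 and 24.8 CPM in saline and 78.6 and 48.9 CPM in treated libraries, a log2 fold change of 1.13 ± 0.28 (edgeR adjusted p 0.142). Egfl7 (chr2:26580014-26593120), a matrix protein secreted by endothelium, read 30.7 and 23.5 CPM in saline and 84.7 and 46.1 CPM in treated libraries, 2.41-fold higher on the fitted scale (edgeR adjusted p 0.143). For these 3 of the 5 genes the lower treated library exceeded the higher saline library, as it did for 27.4% of all genes tested.

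Vwf, the clotting factor carrier also made by megakaryocytes, read 47.0 and 25.2 CPM in saline and 95.4 and 26.1 CPM in treated libraries. Treated 2 lay near the lower saline library and the log2 fold change was 0.75 ± 0.61. Nos3, the endothelial nitric oxide synthase, read 10.7 and 5.38 CPM in saline and 8.64 and 7.10 CPM in treated libraries. The treated libraries thus lay within the saline range, and the log2 fold change of -0.04 ± 0.39 turned to 0.07 with upper-quartile factors.

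Lyve1 (chr7:110850607-110863239), the hyaluronan receptor of lymphatic vessels that some macrophages also carry, read 28.0 and 25.6 CPM in saline and 48.2 and 34.7 CPM in treated libraries. Its groups did not overlap, and its log2 fold change was 0.63 ± 0.21 (edgeR adjusted p 0.184).

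Replicate 1 stood above replicate 2 in both groups. Saline 1 exceeded saline 2 for 32 of the 34 genes, with a median ratio of 1.33, and treated 1 exceeded treated 2 for 33 of 34, with a median ratio of 1.77. Over all tested genes the same median ratios were 0.996 and 1.00. Cd93 and Emcn were the genes higher in saline 2, and Flt1 was the gene higher in treated 2. The ratio within both groups was widest for Calcrl, 4.16 in saline and 5.48 in treated libraries, and for Tmem100, 3.06 and 9.09. Prox1 reached 4.60 in saline, on 3 counts in the lower library.

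**Figure D2:**
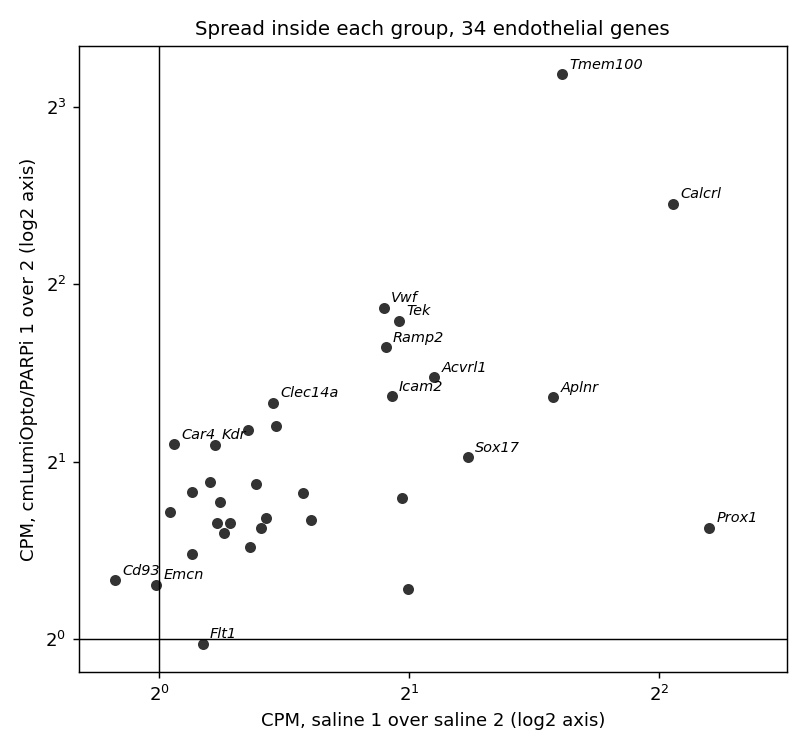
For each of the 34 endothelial genes, the CPM of saline 1 over saline 2 (horizontal, log2 axis) against treated 1 over treated 2 (vertical, log2 axis), with lines at a ratio of 1. Nearly all points lie above and to the right of the lines, at medians of 1.33 and 1.77, with Tmem100 and Calcrl farthest out.

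Summed over the 34 genes, the libraries read 1678 and 1320 CPM in saline and 2550 and 1362 CPM in treated libraries. Treated 1 was the highest and treated 2 lay between the saline libraries, so the groups overlapped. Treated 1 decided the median log2 fold change. Without it the median was -0.04, with 16 genes above 0 and 18 below, and with all 4 libraries it was 0.61. Without treated 2 the median was 0.90, without saline 1 it was 1.03 and without saline 2 it was 0.34.

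Without treated 1, the 10 genes chosen above for treated libraries that both exceed saline had log2 fold changes from 0.27 for Emcn and 0.37 for Lyve1 to 0.76 for Egfl7 and 0.85 for Car4. Their sign is fixed by that choice and says nothing of stability. Of the genes whose groups overlap, several turned, among them Tmem100 from 1.35 to -0.99, Calcrl from 1.37 to -0.34, Vwf from 0.75 to -0.47 and Acvrl1 from 0.73 to -0.20. Tek went from 1.18 to 0.02. Flt1 was nearly the same, -0.32 with and -0.31 without treated 1, whereas Kdr went from -0.30 to -0.95.

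**Figure D3:**
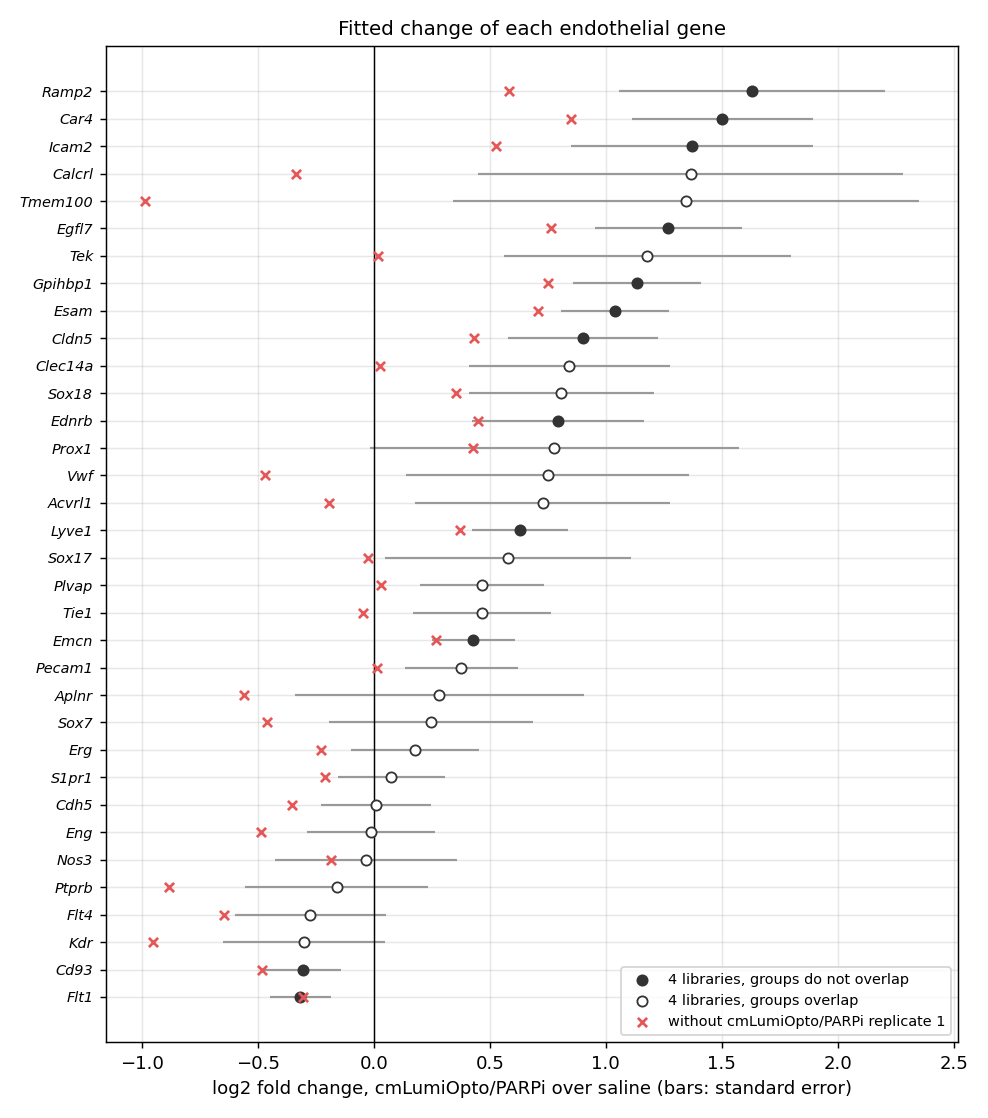
Fitted log2 fold change of treated over saline for each endothelial gene with its standard error (bars, 4 libraries), filled where the 2 groups do not overlap, and the same value without treated replicate 1 (red crosses). The crosses scatter about 0, with 16 above and 18 below, while 27 of the 4-library values lie above 0.

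Shorter endothelial genes had higher log2 fold changes than longer ones. The Spearman correlation of the log2 fold change with gene length was -0.52 across the 34 genes and -0.37 across all genes tested, where genes share the same 4 libraries and are not independent replicates. The 17 shorter genes, of 1416 to 4132 bases, had a median log2 fold change of 0.81, and the 17 longer ones, of 4203 to 16064 bases, a median of 0.47. After a loess correction for length and level fitted on all genes, the correlation was -0.27 and the median of the 34 was 0.51, with 29 above 0. The correction took Flt1, a long gene, from -0.32 to 0.10, Ptprb from -0.16 to 0.23 and Cd93 from -0.31 to -0.02. Ramp2 was little moved, from 1.63 to 1.56. The part of gene length in these differences was not tested further.

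**Figure D4:**
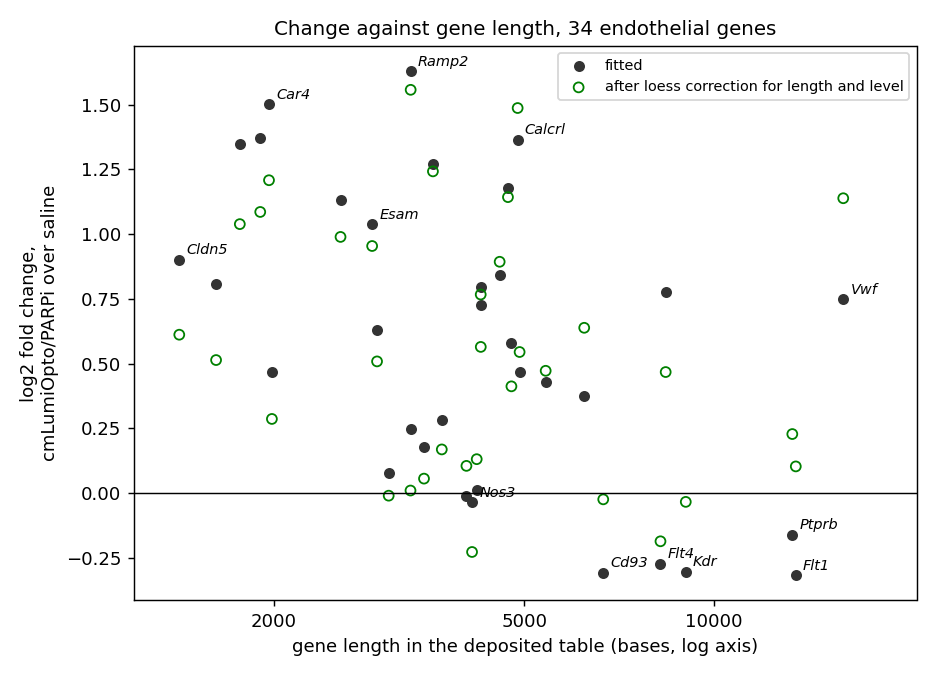
Log2 fold change of treated over saline (vertical) against gene length in bases (horizontal, log axis) for the 34 endothelial genes, as fitted (black) and after loess correction for length and level (green rings). Fitted values below 0 belong mostly to the longer genes, and after correction 29 of the 34 lie above 0.

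Per length, the endothelial genes spanned a wide range in saline libraries. Plvap was highest, at a mean of 135 TPM (transcripts scaled per gene length and library), then Eng at 123 TPM, Cdh5 at 100 TPM and Cldn5 at 91.5 TPM. Cd93, Pecam1, S1pr1, Esam, Sox18 and Gpihbp1 followed, between 75.1 and 34.6 TPM. Then came Lyve1, Acvrl1, Calcrl, Tie1, Egfl7, Flt1, Clec14a and Kdr, between 27.9 and 21.2 TPM. Ramp2, Ptprb, Erg, Icam2, Tmem100, Aplnr, Emcn and Car4 lay between 17.1 and 11.5 TPM, and Tek, Flt4, Vwf, Sox7, Nos3, Sox17, Ednrb and Prox1 between 7.97 and 0.208 TPM. Of the 33 pairs of neighbours in this order, 7 separated, in that both saline libraries of the upper gene exceeded both of the lower: Eng over Cdh5, Cd93 over Pecam1, Pecam1 over S1pr1, Gpihbp1 over Lyve1, Emcn over Car4, Car4 over Tek and Ednrb over Prox1. The other neighbours did not differ beyond the spread of the saline libraries.

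Of 30 further genes of endothelium in general, 0 passed edgeR's adjusted test, 25 had a log2 fold change above 0 and 5 below, with a median of 0.37. Their summed level was 1350 and 1228 CPM in saline and 1686 and 1162 CPM in treated libraries, again with treated 1 highest and the groups overlapping. Cd34, a sialomucin of capillaries, read 64.2 and 46.5 CPM in saline and 95.2 and 68.4 CPM in treated libraries. Ecscr and Myct1, both endothelial membrane proteins, had log2 fold changes of 0.55 and 0.93 with groups that did not overlap. Ets1, an ETS factor shared with lymphocytes, was lower in both treated libraries, with 142 and 130 CPM in saline and 105 and 107 CPM in treated libraries. Podxl and Heg1 had log2 fold changes of -0.30 and -0.27 and overlapping groups. At an unadjusted p under 0.05 in edgeR's test 1 of the 30 was higher and 1 lower, where 9.21% and 12% of all genes were. The 3 other tests, DESeq2 among them, each called 0.

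Genes of vessel segments varied more. Of 13 genes of general capillaries and aerocytes, 9 were above 0 and 4 below, and the summed level was 724 and 637 CPM in saline and 844 and 724 CPM in treated libraries, which met at the border. Ptp4a3, a phosphatase, read 35.7 and 32.3 CPM in saline and 51.9 and 48.3 CPM in treated libraries. Tspan12, a co-receptor in norrin signalling, and Fibin had log2 fold changes of 1.05 and 1.02. Itih5 was lower, at 16.6 and 15.1 CPM in saline and 4.84 and 8.78 CPM in treated libraries. At an unadjusted p under 0.05 in edgeR's test 4 of the 13 were higher and 1 lower. Of all genes tested 9.21% were higher and 12% lower. Adgrl3 had a log2 fold change of -0.67, and Kitl one of -0.08 that turned to 0.02 with upper-quartile factors.

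Of 12 arterial genes, 9 were above 0 and 3 below. Dll4, the Notch ligand of arteries and sprouting tips, read 15.9 and 11.1 CPM in saline and 26.4 and 21.3 CPM in treated libraries, and the Notch target Hey1 5.27 and 2.39 CPM in saline and 23.5 and 5.78 CPM in treated libraries. The elastic fibre gene Fbln5 had a log2 fold change of 1.11. Unc5b, a netrin receptor, was lower, at 233 and 200 CPM in saline and 128 and 163 CPM in treated libraries, as was the ephrin gene Efnb2, with a log2 fold change of -0.43. The Wnt antagonist Dkk2 was also lower, by a log2 fold change of -0.99.

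Of 12 venous and activated endothelial genes, 7 were above 0 and 5 below. Ephb4, the venous partner of Efnb2, read 264 and 249 CPM in saline and 195 and 189 CPM in treated libraries, a log2 fold change of -0.42. The saline means of Ephb4 and Unc5b, 256.5 and 216 CPM, exceeded the 139 CPM of Cdh5. Which cells of the tissue carried Ephb4, Unc5b and Efnb2 was not tested. The leukocyte adhesion genes parted, with log2 fold changes of 0.97 for Icam1, 0.05 for Sele, -0.25 for Vcam1 and -0.50 for Selp. The groups of Sele overlapped, and Vcam1 and Selp were lower in both treated libraries. Those of Icam1 only just did not overlap, with 66.2 CPM in saline 1 and 67.1 CPM in treated 2. Without overlap, 2 of the 12 genes (16.7%) were higher and 3 (25%) lower, against 27.4% and 27.8% of all genes tested. Car8 was at 2.37, from 1.09 to 16.8 CPM over the libraries, and Prss23 at 0.09.

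Of 9 further lymphatic genes, 6 were above 0 and 3 below. Ccl21a, the chemokine of lymphatic vessels, had 11.4 and 0.545 CPM in saline and 27.1 and 11.1 CPM in treated libraries, so saline 2 stood far below the others. Reln had 0 counts in that library. Nrp2, the VEGF-C co-receptor that tumour cells also carry, was lower in both treated libraries, at 321 and 357 CPM in saline and 230 and 272 CPM in treated libraries. Itga9 had a log2 fold change of -0.35 and Foxc2 one of -0.56. Pdpn, shared with alveolar type 1 cells, had a log2 fold change of 0.41 and Thy1 one of 0.21.

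Among 23 ligands and partners of the receptors above, 19 could be tested, 0 passed edgeR's adjusted test, and 11 were above 0 and 8 below. Edn1, the ligand of Ednrb, read 5.21 and 6.54 CPM in saline and 10.9 and 12.5 CPM in treated libraries, a log2 fold change of 0.99. Bmp6, a BMP, read 5.46 and 1.91 CPM in saline and 20.1 and 5.54 CPM in treated libraries. Gdf2 and Bmp10 of this list had at most 5 counts in any library and were not tested. Lpl, the lipase that Gpihbp1 carries, had a log2 fold change of 0.98 with overlapping groups. Sphk1, which makes the ligand of S1pr1, had a log2 fold change of -0.42, Tgfb1 one of -0.19 and the Tek ligand Angpt1 one of -0.33. At an unadjusted p under 0.05 in edgeR's test 1 of the 19 was higher and 0 lower, where 9.21% and 12% of all genes were. The 3 other tests each called 0.

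Of 14 markers of pericytes and smooth muscle, the cells that wrap vessels, 8 were above 0 and 6 below, with 0 past edgeR's adjusted test. On the higher side, Higd1b, Cox4i2 and Rgs5 had log2 fold changes of 1.66, 1.77 and 1.02. Pdgfrb, carried by pericytes and fibroblasts alike, read 79.6 and 78.6 CPM in saline and 48.4 and 50.1 CPM in treated libraries, and Acta2 and Cspg4 had log2 fold changes of -0.42 and -0.52. The groups did not overlap for 4 of the 14 (28.6%) on the higher side and for 4 (28.6%) on the lower side. The shares of all genes tested were close, 27.4% and 27.8%. The 6 genes named here were among those without overlap, and were picked for the smallest adjusted p in each direction. At an unadjusted p under 0.05 in edgeR's test 3 of the 14 were higher and 2 lower, where 9.21% and 12% of all genes were. DESeq2 called 3 of the 14 in either direction, against 965 of 14586 genes.

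Most markers of alveolar and airway cells had log2 fold changes above 0. All 10 alveolar type 1 markers had a log2 fold change above 0, and their summed level was 742 and 501 CPM in saline and 1490 and 908 CPM in treated libraries. Of 10 alveolar type 2 markers 8 were above 0, summing to 3504 and 1686 CPM in saline and to 12013 and 5480 CPM in treated libraries. All 10 airway markers were above 0, at summed levels of 1159 and 85.1 CPM in saline and 5723 and 3203 CPM in treated libraries. In each of these 3 lists treated 1 had the highest sum and saline 2 the lowest, as for the 34 endothelial genes together, but treated 2 exceeded saline 1. A few genes made up much of the sums, with Sftpc at 6153 CPM, Lyz2 at 3619 CPM and Scgb1a1 at 5304.5 CPM in treated 1. Counted by gene, treated 1 was highest for 10, 8 and 7 of the 10 genes of these lists in turn. Saline 2 was lowest for 10, 8 and 8. The part of these cells in the endothelial values was not tested.

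The sums of the lists that follow did not have that order. The 4T1 epithelial markers, 8 of 10 tested, summed to between 3000 and 4127 CPM with overlapping groups, and Krt5 and Krt6a of that list were each at 0 counts in at least 1 library. Leukocyte markers summed to 1516 and 759 CPM in saline and to 1167 and 1653 CPM in treated libraries, with 12 of 14 above 0. Gene by gene, however, treated 1 was highest for 9 of these 14 markers and saline 2 lowest for 11. Platelet and megakaryocyte markers, 5 of 8 tested, summed to between 15.3 and 46.9 CPM. Fibroblast markers were lower in sum in both treated libraries, at 5564 and 4183 CPM in saline and 2065 and 2299 CPM in treated libraries, with 3 of 10 above 0. Haemoglobin genes summed to 1116 and 357 CPM in saline and to 991 and 1241 CPM in treated libraries. The 10 proliferation markers summed to 1403 and 1375 CPM in saline and to 1029 and 1307 CPM in treated libraries. No gene of the alveolar, airway or other lists passed edgeR's adjusted test. At an unadjusted p under 0.05, 5 alveolar type 1, 8 alveolar type 2 and 10 airway markers were higher. Of the fibroblast markers 3 were higher and 5 lower, and 1 alveolar type 2 marker was lower. Of all genes 9.21% were higher and 12% lower. DESeq2 called 2, 2, 7 and 7 of the 10 genes of these 4 lists in either direction, against 965 of 14586 genes. The exact test called 4, 5, 6 and 5 and the likelihood ratio test 4, 5, 6 and 6, against 815 and 865 of 15167 genes. The part of these cells in the endothelial values was not tested.

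**Figure D5:**
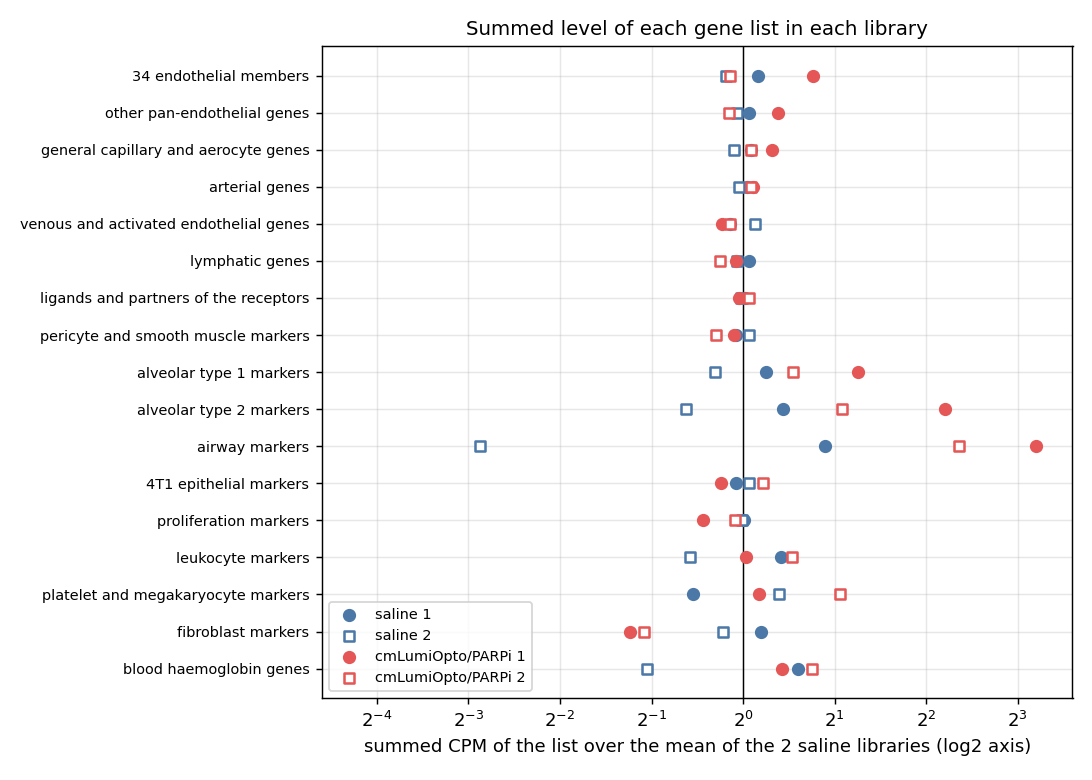
Summed CPM of each gene list in each library over the mean of the 2 saline libraries (log2 axis), saline in blue and treated in red, circles for replicate 1 and squares for replicate 2. The endothelial genes place treated 1 highest with treated 2 beside saline 2, whereas in the alveolar and airway lists the treated pair lies above the saline pair.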

How the data were processed

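Poly(A) RNA from 4 libraries was sequenced and mapped with HISAT2, per the labels and the study's methods. The authors deposited raw read counts, 1 value per gene and library, without normalization. The methods name GRCm38 and the submitters' processing notes mm39. Of 52073 identifiers shared with GENCODE M21 (GRCm38), 2.83% had the same position, so printed coordinates are those of GENCODE M21, found for all 34 genes. The counting tool, annotation and strand setting are not given in the sources used here, so reads from an antisense or overlapping partner of a gene cannot be told apart.

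All genes kept by filterByExpr (minimum count 10) were tested with edgeR 4.0.16 in R 4.3.3 (TMM, quasi-likelihood test, Benjamini-Hochberg adjustment, threshold 0.05). TPM was computed from the deposited counts and gene lengths. Alternatives were edgeR's likelihood ratio and exact tests, DESeq2 1.42.0, the other legacy setting of the edgeR fit, other filters and scalings, a replicate block, a loess correction (span 0.5) and leaving out each library. The code was tested on simulated data.

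The members and lists were chosen with earlier results of these data known. All 34 members are named, by role, with every library's value where groups did not overlap and for at least 2 members of a role otherwise (the lymphatic role has 1). Of the endothelial, ligand and mural lists, up to 3 genes per direction with the smallest adjusted p are named, with Sele, Reln, Gdf2 and Bmp10 besides. Other lists are given by counts and sums, with a few genes named.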

Additional observations from a re-analysis of the deposited data

How the results depend on the processing

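With 2 libraries a group, few values are stable. Of the 34 endothelial genes, 18 kept the sign of their log2 fold change in every setting with a test and 16 turned in at least 1. Genes whose groups did not overlap are all but bound to keep their sign when a library is left out. Part of the 18 was thus fixed by that layout. The loess correction has no test and is not among these settings. The cause of the differences between settings was not tested. Genes called numbered 0 in edgeR's quasi-likelihood test, 2000 without the filter on low counts, 965 with DESeq2, 815 with the exact test and 865 with the likelihood ratio test. Endothelial genes called numbered 0, 14, 4, 4 and 4 in the same order, every endothelial call being higher. Without the filter, the 14 were 41.2% of the 34, against 5.81% called higher of the 15167 genes otherwise tested. Upper-quartile factors moved the median log2 fold change of all genes from 0.02 to 0.13 and that of the endothelial genes from 0.61 to 0.71.

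Same-numbered libraries are not stated to come from linked mice. Across genes, the distance of a saline library from its group mean correlated with that of the same-numbered treated library (Spearman's rho 0.298, over genes that share the same libraries). With the replicate block 1822 genes passed in either direction, 752 of them higher (4.96% of 15167), and 11 of the 34 endothelial genes passed (32.4%), each of the 11 higher, and Cdh5 turned to -0.0206 and Nos3 to 0.0287.

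Leaving out each library in turn gave 0 to 31 genes called, 0 endothelial genes called, a median log2 fold change of -0.0361 to 1.03 and 14 to 32 endothelial genes whose groups did not overlap. With 1 library against 2, however, 74% to 81.7% of all genes tested did not overlap. The log2 fold changes that turned ranged from -0.20 to 1.36 for Acvrl1, -0.56 to 1.26 for Aplnr, -0.34 to 2.72 for Calcrl, -0.35 to 0.28 for Cdh5, -0.49 to 0.32 for Eng, -0.23 to 0.47 for Erg, -0.65 to 0.0457 for Flt4, -0.95 to 0.12 for Kdr, -0.46 to 0.53 for Nos3, -0.89 to 0.30 for Ptprb, -0.21 to 0.29 for S1pr1, -0.0265 to 1.31 for Sox17, -0.46 to 0.70 for Sox7, -0.0457 to 0.82 for Tie1, -0.99 to 2.35 for Tmem100 and -0.47 to 1.38 for Vwf. Among other genes they ranged from -0.92 to 0.0565 for Angpt1, -0.82 to 0.10 for Heg1, -0.52 to 0.24 for Kitl and -0.14 to 0.32 for Prss23.

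Other settings turned Eng to 0.0917 and Nos3 to 0.0661 with upper-quartile factors, Eng to 0.0587 and Nos3 to 0.0264 with no factors, Kitl to 0.0237 with upper-quartile factors, and Cdh5 to -0.0018 without the filter and to -0.0016 with DESeq2. Prox1, at 3 to 21 counts, is limited by depth and was not tested with a filter of 1 CPM in 2 libraries.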
